A study of Mus musculus with 12 samples.

Results

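The genes described here are used as markers of the production of new neurons in the adult brain. They are Sox2, Nes, Mki67, Top2a, Eomes, Neurod1, Sox4, Sox11, Dcx and Igfbpl1, chosen by name as genes of neural stem cells, dividing progenitors and immature neurons, and they make up 10 of the 24209 genes left after the RefSeq entries of each gene symbol were summed. The series holds hippocampal RNA of 12 male C57BL/6 mice, 6 in each of 2 experiments. All mice had received bilateral injections of an AAV5 vector into the hippocampus at an age of 10 weeks. The entire hippocampi of both sides were taken 10 weeks later. The paper also describes behavioural testing before that time and does not say whether these 12 mice took part. The miR-9 experiment held 3 mice with GFP-miR-9sp (mice 17, 23 and 9) and 3 with GFP Ctrl (mice 16, 2 and 8), and the miR-34 experiment held 3 mice with GFP-miR-34sp (mice 13, 18 and 3) and 3 other mice with GFP Ctrl (mice 10, 4 and 8). A sponge (sp) is a transcript with repeated target sites that occupies a miRNA family, here placed behind GFP, and GFP Ctrl carries GFP alone. In all 4 groups the synapsin promoter drove the vector, so that neurons expressed it, whereas the sequenced RNA came from all cells of the tissue.

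In the adult dentate gyrus, radial glia-like stem cells divide rarely and give rise to transit-amplifying progenitors, which become neuroblasts and then granule neurons. Sox2 is a transcription factor of stem cells that astrocytes also express, and nestin (Nes) is an intermediate filament of the stem cells. Mki67 and Top2a are present in dividing cells, Eomes (Tbr2) marks intermediate progenitors, Neurod1, Sox4 and Sox11 are transcription factors of the neuronal lineage, doublecortin (Dcx) binds microtubules in migrating neuroblasts, and Igfbpl1 belongs to the family of IGF binding proteins. Because whole tissue was sequenced, fewer cells of a type and less RNA per cell cannot be told apart. Which cells of the tissue the RNA of each gene came from was not tested, so the levels are not a measure of neurogenesis.

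The total number of counted reads per mouse ranged from 17279620 to 24428477 (miR-9 experiment) and from 11029604 to 16934133 (miR-34 experiment). Markers of granule cells, neurons and astrocytes were present in all 12 mice, with summed levels of 603.6 to 844.3, 6877 to 8029 and 3553 to 4082 TPM (reads per transcript length, on a common total for all mice). The summed level of 10 choroid plexus markers, a tissue that borders the hippocampus, varied far more. It was 88.01 to 256.4 TPM after GFP-miR-34sp and 1283 to 4846 TPM in the GFP Ctrl mice of that experiment, and 63.07 to 1850 TPM after GFP-miR-9sp and 221 to 1568 TPM in its GFP Ctrl mice. The choroid plexus marker Folr1 was at 0 in all 4 groups and Otx2 was at 0 in both sponge groups. Both genes have 4 RefSeq entries, with 0 and 7 reads in all 12 mice, so these zeros are not read as a difference between groups.

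Of the 10 genes, 8 could be measured. A gene was tested when its mean exceeded 10 scaled reads, that is reads scaled to the average total of the experiment, over the mice compared. Sox2, Neurod1, Sox4, Sox11, Nes, Igfbpl1, Mki67 and Top2a passed this limit in each comparison, and each has a single RefSeq entry. Dcx, with 4 RefSeq entries, had 0 to 3 reads per mouse and 18 reads in all 12 mice, all of them on the entry of 9060 bases. Eomes, with 2 entries, had 0 reads in all 12 mice, and 0 reads allow a share of up to 1.23e-05% to 2.72e-05% of a mouse's reads (3 reads, counting error only). Dcx and Eomes were not tested, and no fold was computed for either.

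Low values were frequent among genes with several entries. Of the 16347 genes with 1 coding entry, 64.6% had a mean above 10 scaled reads and the median was 121, whereas of the 4366 genes with 2 or more coding entries 35.8% passed and the median was 2.95. Other genes with several entries and known roles in neurogenesis were at 0 reads in all mice, among them Vegfa and Igf1, which encode growth factors, the receptor gene Fgfr1 and the cell division genes Tpx2, Bub1, Tyms and Prc1. Several entries did not always go with low values, as Ntrk2, the receptor for BDNF, had 3 entries and 4621 to 11743 reads per mouse. The rule by which reads shared between entries were counted is not given in the sources used here, and its part in the values of Dcx and Eomes was not tested. No level of Dcx or Eomes RNA in the tissue is drawn from these values.

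**Figure D1:**
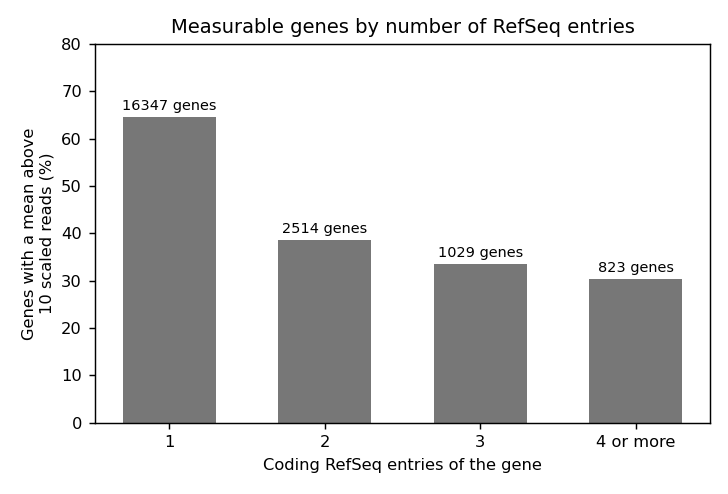
Share of genes with a mean above 10 scaled reads over the 12 mice (vertical axis, %) for genes with 1, 2, 3 and 4 or more coding RefSeq entries (horizontal axis), with the number of genes above each bar. The share was 64.6% for genes with 1 entry and 30.4% for genes with 4 or more.

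The miRNA sequences are shown because the seed (bases 2 to 8, in capitals) determines which target sites a sponge competes for. The mature sequences are those of RefSeq (build GRCm38.p6). miR-34a-5p and miR-34b-5p share their seed, which miR-9-5p does not, and miR-34c-5p also belongs to the miR-34 family.
miR-9-5p: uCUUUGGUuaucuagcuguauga
miR-34a-5p: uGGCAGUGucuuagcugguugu
miR-34b-5p: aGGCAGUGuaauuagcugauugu

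Matches to these seeds were searched on the sense strand of the longest annotated 3′ UTR of each gene (GENCODE M1, build NCBIM37, which corresponds to mm9). An 8mer match was ACCAAAGA for miR-9 and CACTGCCA for miR-34, and a 7mer-m8 match was ACCAAAG or CACTGCC without the final A. None of the 10 genes held a miR-9 match, and 3.75% of the 19915 genes with a 3′ UTR held an 8mer and 11.4% an 8mer or 7mer-m8. For miR-34, Dcx held an 8mer, which 4.89% of genes held, and Sox4 and Eomes held a 7mer-m8, so that 3 of the 10 genes had a match of either kind, beside 14% of all genes. The matches of Dcx, Sox4 and Eomes (capitals) are the only ones found among the 10 genes, and they lie at chrX:140297018-140297025 (minus strand), chr13:29040867-29040873 (minus strand) and chr9:118394720-118394726 (plus strand). Both flanks are printed in lower case.
Dcx: aatcatgctctCACTGCCAaacagaaagct
Sox4: atcctgtccgtCACTGCCtgtcaggttgt
Eomes: tagctagtactCACTGCCttcaattcctt

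Of these 3 genes, Sox4 alone had enough reads for a test. The annotated 3′ UTR of Sox11 was 524 bases long, whereas the counted RefSeq entry was 8451 bases long, so the search covered a small part of what lies beyond its coding sequence. The annotated Top2a transcript, of 1967 bases, was likewise shorter than the counted entry of 5217 bases. For Sox4 the match starts at base 2695 of the annotated 3′ UTR of 2780 bases, in a transcript of 4795 bases. The counted Sox4 entry was shorter, with 2953 bases, and whether it reaches the match was not examined.

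The levels of the 8 measured genes, compared per transcript length, followed a fixed order at the top. Sox2, a gene with a single exon at chr3:34548927-34551383, was highest with 108 ± 13.5 TPM (mean ± SD, n = 12 mice), which was above 83.6% of the detected genes. Neurod1 (chr2:79292678-79296908) followed with 47.4 ± 4.26 TPM, Sox4 (chr13:29040788-29045582) with 30.3 ± 3.15 TPM, Sox11 (chr12:28025562-28027574) with 17.04 ± 1.81 TPM and Nes (chr3:87775000-87784373) with 9.08 ± 0.819 TPM. In every one of the 12 mice, each of these 5 genes was above the next. The 3 lowest measured genes were close to each other, with 1.84 ± 0.821 TPM for Igfbpl1 (chr4:45822340-45839795), 1.13 ± 0.223 TPM for Mki67 (chr7:142881471-142908062) and 1.00 ± 0.176 TPM for Top2a (chr11:98854257-98885503). Igfbpl1 was above Mki67 in 10 of 12 mice and Mki67 above Top2a in 9 of 12, so these neighbours were not separated beyond their spread. The values computed for Dcx (chrX:140290385-140367854) and Eomes (chr9:118387330-118395250) were 0.0262 and 0 TPM. They are not ranked with the others, since no level is drawn from them.

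**Figure D2:**
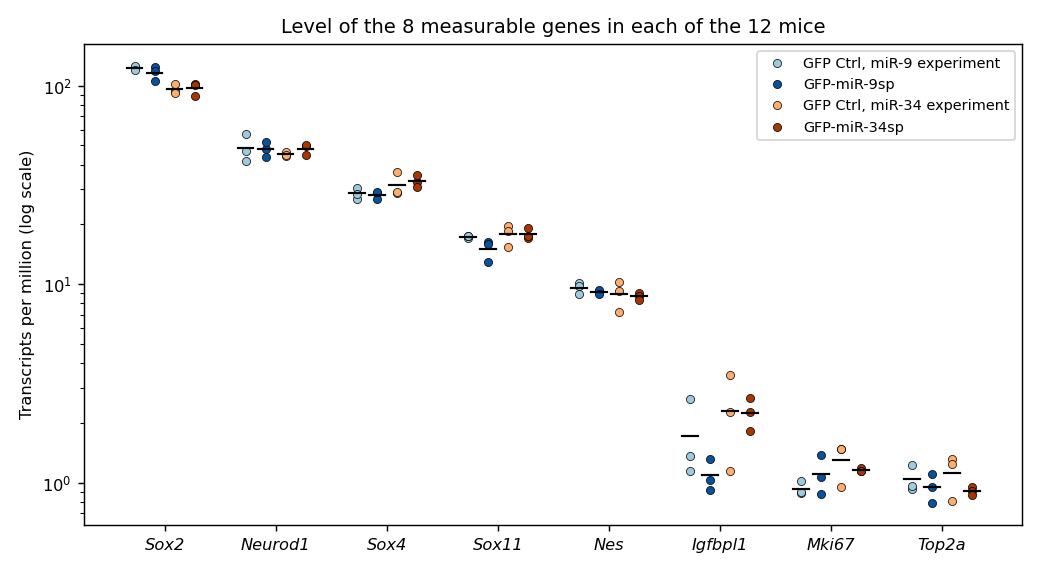
Level of the 8 measured genes in each mouse, in TPM on a log scale (vertical axis), for the 4 groups of 3 mice. Points are mice and black lines are group means. Sox2, Neurod1, Sox4, Sox11 and Nes form separate steps from 108 to 9.08 TPM, and Igfbpl1, Mki67 and Top2a overlap between about 1 and 3.5 TPM.

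The spread between mice differed between the genes. The coefficient of variation between mice of a group, averaged over the 4 groups, was 5.73% for Sox2, 7.62% for Nes, 7.93% for Sox4, 8.05% for Sox11 and 8.29% for Neurod1. It was 14.2% for Mki67 and 15.3% for Top2a, where counting error alone gives 12.3% and 18.1%. Igfbpl1 had the highest value, 33.8%, beside 18.7% from counting error. Igfbpl1 had 14 to 55 reads per mouse, and its value ran from 18.1% to 51.7% between the groups. The ratio of the average to counting error was 2.35 for Sox11, 2.25 for Sox2, 2.18 for Neurod1 and 1.83 for Sox4. It was 1.8 for Igfbpl1, 1.37 for Nes, 1.16 for Mki67 and 0.847 for Top2a, so excess spread was not particular to Igfbpl1. No test was made of this excess.

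The comparison of GFP-miR-9sp with GFP Ctrl asks whether inhibition of miR-9 in neurons changed these genes. None of the 8 measured genes passed the test (edgeR quasi-likelihood, Benjamini-Hochberg adjusted p under 0.05), and the same held with DESeq2 and with the study's own criterion of an unadjusted p under 0.05 together with a minimum ratio. Over all 13045 genes tested, edgeR called 0 (0%), DESeq2 called 2, and 617 genes (4.73%) had an unadjusted p under 0.05, among them 1 of the 8, Sox11.

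Sox11 was counted at 993, 947 and 783 scaled reads in GFP-miR-9sp mice 17, 23 and 9, and at 1036, 1059 and 1059 in GFP Ctrl mice 16, 2 and 8. All sponge mice were below all GFP Ctrl mice, as were 7.86% of all genes tested. The log2 difference was -0.19 (SE 0.08, 95% interval -0.36 to -0.02, unadjusted p 0.0337, adjusted p 0.97), and it shrank to -0.09 without GFP-miR-9sp mouse 9. Without the 2 mice that had the most choroid plexus RNA, GFP-miR-9sp mouse 17 and GFP Ctrl mouse 2, it was -0.24 (adjusted p 0.759). The 8 subventricular neuroblast markers include Dlx genes that hippocampal interneurons also express. Their summed level was 56.64 to 61.97 TPM after GFP-miR-9sp and 63.94 to 67.59 TPM in GFP Ctrl mice. Other marker sums did not overlap between these groups either. In the same order, 10 microglia markers summed to 951.3 to 1017 and 1031 to 1087 TPM. The 6 markers of Cajal-Retzius cells went the other way, with 59.49 to 63.21 and 48.95 to 54.5 TPM. The part of any of these markers in the Sox11 values was not tested.

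Igfbpl1 gave 25, 17 and 17 reads in GFP-miR-9sp mice 17, 23 and 9, and 27, 55 and 25 in GFP Ctrl mice 16, 2 and 8. After scaling the groups overlapped, with 17.9 to 25.7 and 22.3 to 51.7 scaled reads, and GFP Ctrl mouse 2 stood above the other 5 mice. The log2 difference was -0.63 (SE 0.34, 95% interval -1.38 to 0.13, adjusted p 0.97) and it was -0.17 without that mouse and -0.87 without GFP Ctrl mouse 16. Mki67 pointed the other way, with 77.1, 98.0 and 63.1 scaled reads in GFP-miR-9sp mice 17, 23 and 9 and 63.5, 64.8 and 73.2 in GFP Ctrl mice 16, 2 and 8. The groups overlapped, and the log2 difference was 0.26 (95% interval -0.14 to 0.66, adjusted p 0.97). It ranged from 0.08 without GFP-miR-9sp mouse 23 to 0.41 without mouse 9 (unadjusted p 0.0477, adjusted p 0.843).

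For the other 5 genes the groups overlapped as well, and the intervals limit how large a difference could have been missed. The 95% interval reached from -12.4% to 3.17% for Sox2, from -13.4% to 7.68% for Nes, from -9.75% to 10.2% for Sox4 and from -15.7% to 16.9% for Neurod1. For Top2a, counted with 28 to 49 reads, it was wider, from -32.8% to 26%. The 8 genes had a median log2 difference of -0.062, and that of all genes was -0.001.

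**Figure D3:**
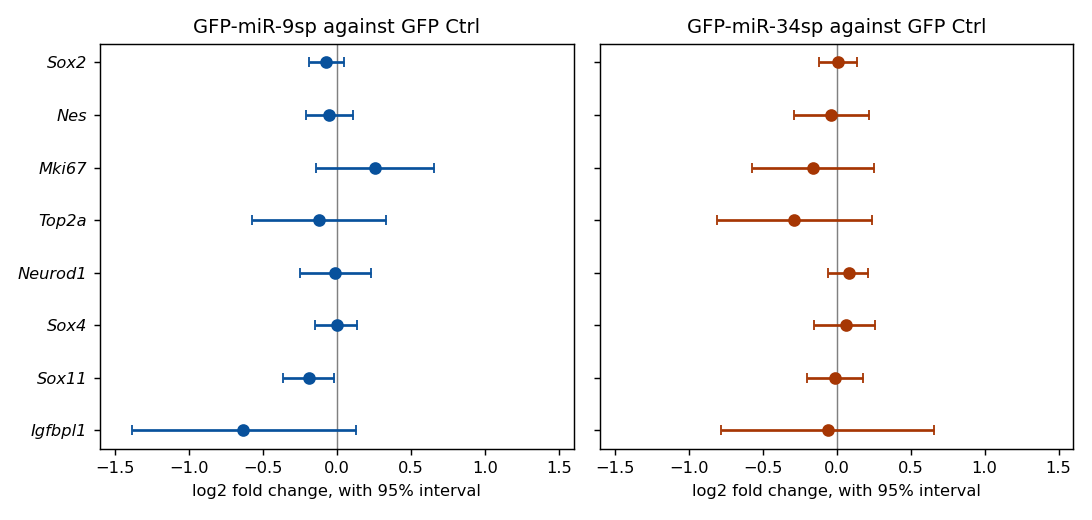
Log2 fold change of the 8 measured genes after GFP-miR-9sp (left) and GFP-miR-34sp (right) against the GFP Ctrl mice of the same experiment (horizontal axis), with the 95% interval as bars and 3 mice per group. The interval of Sox11 after GFP-miR-9sp, -0.36 to -0.02, lies below 0, and the intervals of all other genes in both panels include 0.

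GFP-miR-34sp was compared with GFP Ctrl in the same way. None of the 8 genes passed the test with edgeR, with DESeq2 or under the study's criterion, and none had an unadjusted p under 0.05. Over all 12492 genes tested, edgeR called 8 (0.064%), all lower after GFP-miR-34sp, and 803 genes (6.43%) had an unadjusted p under 0.05. Of the 10 choroid plexus markers 8 were tested, all 8 had a lower value after GFP-miR-34sp at an unadjusted p under 0.05 (median log2 difference -3.622), and 3 passed after adjustment: Ttr, which encodes transthyretin (log2 difference -4.34, adjusted p 0.0278), Tmem72 (-3.83, adjusted p 0.037) and the water channel gene Aqp1 (-3.63, adjusted p 0.0384). These calls depended on the mice included, as edgeR called 0 genes without GFP Ctrl mouse 4, without GFP-miR-34sp mouse 13, 18 or 3 and in 1 model of all 12 mice, and 1 gene, Ttr, without GFP Ctrl mouse 8, while the log2 difference of Ttr stayed between -4.73 and -3.97 without each mouse. The part of this tissue in the values of the 8 genes was not tested.

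Sox4, the tested gene with a miR-34 match in its annotated 3′ UTR, gave 478, 451 and 521 scaled reads in GFP-miR-34sp mice 13, 18 and 3. It gave 424, 544 and 428 in GFP Ctrl mice 10, 4 and 8. The groups overlapped, with GFP Ctrl mouse 4 highest. The log2 difference was 0.06 (SE 0.09, 95% interval -0.15 to 0.26, adjusted p 0.955), and it was 0.18 without GFP Ctrl mouse 4.

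The genes of dividing cells had lower averages after GFP-miR-34sp, within the spread. Top2a gave 24.7, 23.5 and 22.5 scaled reads in GFP-miR-34sp mice 13, 18 and 3 and 21.0, 34.3 and 32.2 in GFP Ctrl mice 10, 4 and 8, a log2 difference of -0.29 (95% interval -0.81 to 0.24, adjusted p 0.916). Mki67 gave 59.4, 57.2 and 57.8 scaled reads in the sponge mice and 47.8, 74.6 and 74.3 in the GFP Ctrl mice, a log2 difference of -0.16 (95% interval -0.57 to 0.25, adjusted p 0.94). In both genes GFP Ctrl mouse 10 was below every sponge mouse and the other GFP Ctrl mice were above them. Without GFP Ctrl mouse 10 the difference was -0.49 for Top2a (unadjusted p 0.0586, adjusted p 0.691) and -0.36 for Mki67 (unadjusted p 0.0452, adjusted p 0.641). Without GFP Ctrl mouse 4 it was -0.16 for Top2a and -0.06 for Mki67, and without GFP Ctrl mouse 8 it was -0.06 for Mki67.

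Igfbpl1 gave 40, 22 and 37 reads in GFP-miR-34sp mice 13, 18 and 3, and 50, 26 and 14 in GFP Ctrl mice 10, 4 and 8. The GFP Ctrl mice thus spanned more than the sponge mice, and the log2 difference of -0.06 (95% interval -0.78 to 0.66) became 0.42 without GFP Ctrl mouse 10. For the more abundant genes the 95% interval was narrow, from -8.22% to 10.5% for Sox2, from -3.83% to 16% for Neurod1, from -12.8% to 13.1% for Sox11 and from -18.2% to 16.1% for Nes. The median log2 difference was -0.024 over the 8 genes and -0.001 over all genes.

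Whether the sponges differed in their effect was tested directly, as the difference between the fold changes in 1 model of all 12 mice. None of the 8 genes passed, and edgeR called 0 of 12832 genes (0%), with 784 (6.11%) at an unadjusted p under 0.05 and 5 called by DESeq2. The difference of Igfbpl1 was 0.57 on the log2 scale (95% interval -0.55 to 1.69, adjusted p 0.876), and it was 0.11 without GFP Ctrl mouse 2 of the miR-9 experiment and 1.04 without GFP Ctrl mouse 10 of the miR-34 experiment. That of Mki67 was -0.43 (95% interval -1 to 0.14, adjusted p 0.837), and it was -0.24 without GFP-miR-9sp mouse 23 and -0.62 without GFP Ctrl mouse 10 of the miR-34 experiment. That of Sox11 was 0.18 (95% interval -0.09 to 0.45, adjusted p 0.852).

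Other genes of the neurogenic lineage were taken from 5 lists, and no gene of these lists passed with edgeR in either sponge comparison. Under the study's criterion Sstr2 (log2 difference -0.43) and Reln (0.30) passed after GFP-miR-9sp, and Sstr2 (0.30), Aspm (0.61) and the growth factor gene Fgf2 (-0.76) after GFP-miR-34sp. Fgf2 is named here because of this call. Over all genes the same criterion called 188 after GFP-miR-9sp and 249 after GFP-miR-34sp. Their share of the genes was not computed, so these calls are not read as particular to the lists. For neural stem cells, 18 of 20 genes were tested. After GFP-miR-9sp the smallest unadjusted p-values were those of Vim, the filament protein vimentin (log2 difference -0.13, adjusted p 0.97), and Id3, an inhibitor of bHLH factors (0.16, adjusted p 0.97), and after GFP-miR-34sp those of Fabp7, a fatty acid binding protein of radial glia (0.15, adjusted p 0.804), and Thrsp (-0.13, adjusted p 0.807). Vim was the only stem cell gene with an unadjusted p under 0.05, and the medians of the list were 0.001 and -0.051.

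For progenitors, 14 of 15 genes were tested. After GFP-miR-9sp, 2 of them, 1 lower and 1 higher, had an unadjusted p under 0.05 with edgeR, as did 4.73% of all genes tested. The somatostatin receptor gene Sstr2 averaged 112 ± 13.8 scaled reads after GFP-miR-9sp and 151 ± 18.5 in GFP Ctrl mice (SD, n = 3), a log2 difference of -0.40, and Nhlh1, a bHLH factor of newly formed neurons, averaged 33.5 ± 10.2 and 20.2 ± 5.62, a difference of 0.72, both with an adjusted p of 0.97. After GFP-miR-34sp no progenitor gene had an unadjusted p under 0.05. Sstr2 differed by 0.30 (adjusted p 0.79) and the cyclin gene Ccnd2 by -0.12 (adjusted p 0.772), and the medians of the list were -0.011 and 0.061.

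Among 25 genes of immature neurons, 24 were tested in the miR-9 and 23 in the miR-34 experiment. Bhlhe22, a bHLH factor, differed by -0.18 and the IGF receptor gene Igf1r by 0.14 after GFP-miR-9sp, both with an adjusted p of 0.97. Mex3a, an RNA binding protein, differed by -0.30 (adjusted p 0.772) and Draxin, an axon guidance protein, by -0.55 (adjusted p 0.797) after GFP-miR-34sp. The medians of the list, 0.011 and 0.014, were close to 0.

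Of 35 genes of cell division, 20 and 17 were tested, and 10 of the untested ones have several RefSeq entries. None had an unadjusted p under 0.05 in either comparison. The 2 smallest were those of the replication gene Mcm4 (0.15) and the checkpoint gene Bub1b (-0.34) after GFP-miR-9sp, both with an adjusted p of 0.97, and of the spindle gene Aspm (0.63, adjusted p 0.772) and Rrm2, a subunit of ribonucleotide reductase (0.41, adjusted p 0.895), after GFP-miR-34sp. The medians were 0.056 and -0.018.

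Of 28 genes of niche signals, 22 were tested. Reln, which encodes reelin, averaged 3300 ± 285 scaled reads after GFP-miR-9sp and 2670 ± 262 in GFP Ctrl mice (SD, n = 3), a log2 difference of 0.32 (95% interval 0.16 to 0.49, adjusted p 0.97), and 0.18 without the 2 mice with most choroid plexus RNA (adjusted p 0.733). Frzb, a Wnt antagonist, differed by -0.15 (adjusted p 0.97). After GFP-miR-34sp, 4 niche genes had a lower value at an unadjusted p under 0.05, as did 465 of all 12492 genes (3.72%). The growth factor gene Igf2 averaged 20.4 ± 2.02 scaled reads after GFP-miR-34sp and 54.4 ± 21.5 in GFP Ctrl mice, a log2 difference of -1.41 (95% interval -2.04 to -0.78, adjusted p 0.181), and the VEGF receptor gene Kdr differed by -0.23 (adjusted p 0.481). Igf2 passed with DESeq2 (-1.42, adjusted p 0.0305), without the read limit (adjusted p 0.00131) and without GFP Ctrl mouse 10 (-1.63, adjusted p 0.028). Igf2 is also expressed by choroid plexus, whose summed markers differed between the same groups as given above, and their part in the Igf2 values was not tested. The medians were 0.015 and -0.072.

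Markers of other cell types gave no further call with edgeR in either sponge comparison. After GFP-miR-9sp the list medians lay between -0.142 for 8 ependymal genes and 0.198 for the 2 tested genes of Cajal-Retzius cells, Ndnf and Reln, the latter being also the niche gene above. After GFP-miR-34sp they lay between -0.282 for the ependymal genes and 0.131 for the Cajal-Retzius genes, apart from -3.622 for the choroid plexus list.

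Whether the genes varied together between mice of the same group was examined by correlation. For the 28 pairs of the 8 genes, the log2(CPM + 1) value of each mouse, where CPM is the read number relative to the library size, was set relative to its group mean and correlated over the 12 mice, with a two-sided exact permutation test within groups. No pair passed after Benjamini-Hochberg adjustment over the 28 pairs. The highest correlation was that of Nes and Top2a, with Pearson's r = 0.87 (exact permutation p 0.00231, adjusted p 0.0648) and Spearman's rho = 0.832 (exact permutation p 0.00694, adjusted p 0.194). It was 0.672 within the miR-9 experiment, 0.982 within the miR-34 experiment and 0.677 without the 2 mice farthest from the median of Nes. When total counts replaced the TMM library sizes, this pair passed (r = 0.878, exact permutation adjusted p 0.0216), the only pair to do so.

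Nes and Mki67 gave r = 0.744 and rho = 0.685 (exact permutation p 0.0147 and 0.0347, adjusted p 0.166 and 0.243). Their r fell to 0.382 without the 2 mice farthest from the median of Nes. The higher value thus depended on the GFP Ctrl group of the miR-34 experiment, which this omission removes. Sox11 and Igfbpl1 gave r = 0.685 and rho = 0.713 (exact permutation p 0.0177 and 0.0177, adjusted p 0.166 and 0.243). Their r was 0.281 within the miR-9 experiment, 0.932 within the miR-34 experiment and 0.635 without the 2 mice farthest from the median of Sox11.

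The GFP Ctrl mice of the miR-34 experiment showed both patterns. GFP Ctrl mouse 10 had the lowest Nes of all 12 mice (7.20 TPM, beside 10.3 and 9.24 TPM in mice 4 and 8), and in the same mouse Mki67 and Top2a were 0.35 and 0.29 log2 units below the group mean. The same mouse had the highest Igfbpl1 (3.50 TPM) and Sox11 (19.7 TPM) of all 12 mice. GFP Ctrl mouse 8 had the lowest values of its experiment for these 2 genes, 1.14 and 15.3 TPM. The summed choroid plexus markers of mice 10, 4 and 8 were 1283, 4011 and 4846 TPM. The summed endothelial markers of the same mice were 188.4, 217.4 and 230.6 TPM. The part of either set of markers in this pattern was not tested.

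**Figure D4:**
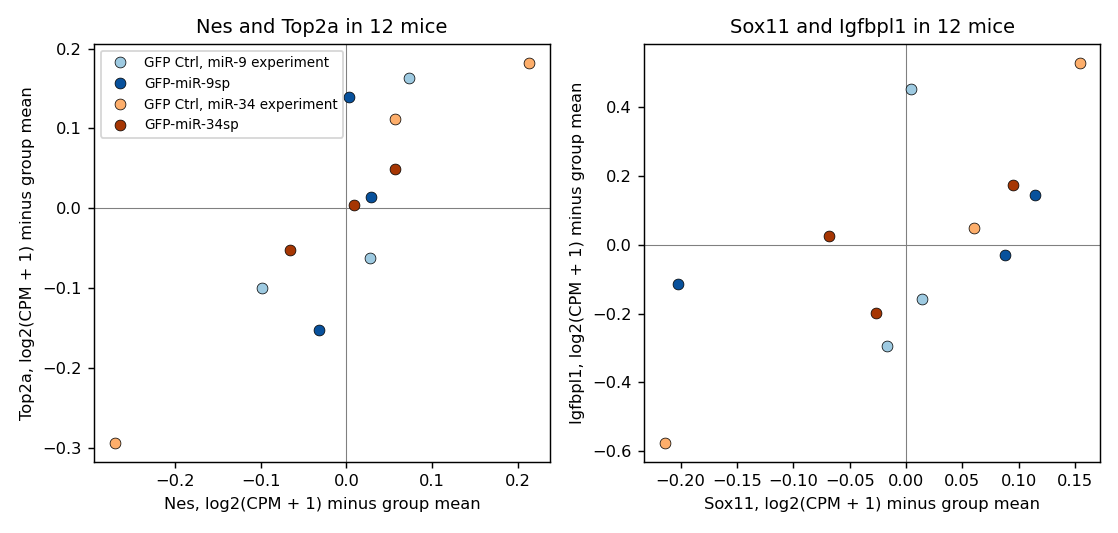
Deviation of each of the 12 mice from its group mean, in log2(CPM + 1), for Nes and Top2a (left) and for Sox11 and Igfbpl1 (right), with colours for the 4 groups. The GFP Ctrl mice of the miR-34 experiment reach farthest along both axes, as with -0.271 for Nes and -0.294 for Top2a in mouse 10.

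Among 12389 genes measured in both experiments, those whose deviations were most like those of Sox2 over the 12 mice were Mpv17l2 (r = 0.992), Dact3 (0.964), Stk36 (0.940), the RefSeq entry NM_144847 (0.939) and Arglu1 (0.928). They were picked as the highest of many and their r is a description. Of the other 7 genes, Sox4 was nearest to Sox2 with r = 0.664, at rank 516. Mki67 was farthest, at rank 8657. The same ranking for Dcx was not made, since its 0 to 3 reads per mouse leave no pattern to compare.

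The GFP Ctrl groups received the same vector, so that their comparison shows how far the genes moved between experiments without a sponge. Of all 12832 genes, 3234 (25.2%) differed between the GFP Ctrl mice of the miR-34 and the miR-9 experiment, 1934 (15.1%) higher and 1300 (10.1%) lower in the miR-34 experiment, and with scaling to total counts the split was 1372 higher and 2442 lower. Of the 8 genes, 3 differed (edgeR, adjusted p under 0.05). The log2 differences are those of edgeR with TMM library sizes, a scaling that differs from TPM, so that they need not match the ratio of the TPM values. The experiments differ in sequencing depth and in the deposited labels of the counts, which contain the word totRNA for the miR-9 experiment alone. The methods describe the same library preparation for both, and what the word stands for is not given in the sources used here. These differences cannot be told apart from the experiment.

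Mki67 was at 0.948, 1.48 and 1.48 TPM in GFP Ctrl mice 10, 4 and 8 of the miR-34 experiment and at 0.882, 0.894 and 1.01 TPM in GFP Ctrl mice 16, 2 and 8 of the miR-9 experiment. Mouse 10 lay within the range of the miR-9 experiment and the other 2 above it. The mean TPM values gave a log2 ratio of 0.49. The log2 difference was 0.65 (SE 0.19, 95% interval 0.25 to 1.06, adjusted p 0.0203), and the call was lost without mouse 4 (adjusted p 0.0915) or 8 (0.0882) of the miR-34 experiment and without mouse 16 (0.0681) or 2 (0.0537) of the miR-9 experiment.

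Sox4 was at 28.7, 36.9 and 29.1 TPM in the GFP Ctrl mice of the miR-34 experiment and at 30.7, 26.8 and 28.4 TPM in those of the miR-9 experiment, and the groups overlapped in TPM, with a log2 ratio of the means of 0.14. The log2 difference with TMM was 0.31 (SE 0.09, 95% interval 0.12 to 0.49, adjusted p 0.0172). The call was lost with scaling to total counts (0.24, adjusted p 0.0579), without mouse 4 of the miR-34 experiment (0.101) and without mouse 2 of the miR-9 experiment (0.0639).

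Sox2 was lower in the miR-34 experiment, with 93.7, 102 and 91.9 TPM beside 124, 126 and 120 TPM. The log2 ratio of the mean TPM values was -0.36, beside -0.19 with TMM (SE 0.06, 95% interval -0.32 to -0.05, adjusted p 0.0375) and -0.26 with scaling to total counts (adjusted p 0.00824). That call was lost without mouse 10 (adjusted p 0.111) or 8 (0.132) of the miR-34 experiment and without mouse 16 (0.0898), 2 (0.0949) or 8 (0.0528) of the miR-9 experiment. Sox11 differed by 0.22 (adjusted p 0.0914), and it passed without GFP Ctrl mouse 8 of the miR-34 experiment (0.32, adjusted p 0.0129) and without GFP-miR-9sp mouse 9, which enters through the shared spread (adjusted p 0.0486). Igfbpl1 differed by 0.63 (adjusted p 0.221), which was 0.16 without GFP Ctrl mouse 10 of the miR-34 experiment and 1.09 without GFP Ctrl mouse 2 of the miR-9 experiment, where it passed (adjusted p 0.0401). Top2a, Neurod1 and Nes differed by 0.26, 0.07 and 0.06.

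The sponge mice of the experiments share no animal with the GFP Ctrl mice and gave a separate comparison, although they also differ in vector. Of all genes, 2948 (23%) differed between them, and of the 8 genes Sox4 (log2 difference 0.37, adjusted p 0.00587), Sox11 (0.40, adjusted p 0.00486) and Igfbpl1 (1.2, adjusted p 0.0344) were higher in the miR-34 experiment. Igfbpl1 was at 2.28, 1.82 and 2.66 TPM in GFP-miR-34sp mice 13, 18 and 3 and at 1.31, 1.03 and 0.915 TPM in GFP-miR-9sp mice 17, 23 and 9. Mki67 and Sox2 did not pass there (0.23, adjusted p 0.436, and -0.10, adjusted p 0.247). The log2 ratios of the mean TPM values were 0.22 for Sox4, 0.25 for Sox11 and 1.05 for Igfbpl1. Sox4 was the gene that passed in both comparisons with TMM. The choroid plexus markers did not move alike in both, as Ttr differed by 2.30 between the GFP Ctrl groups (adjusted p 0.127) and by -1.78 between the sponge groups.

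**Figure D5:**
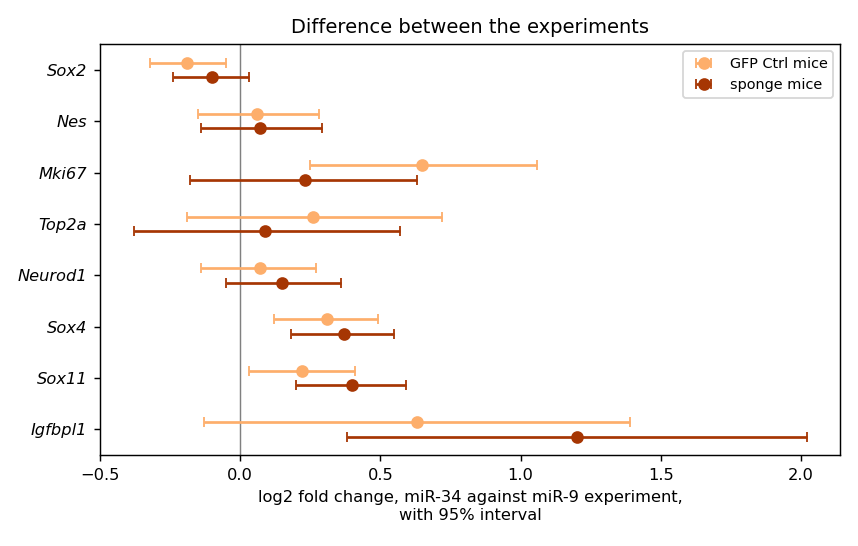
Log2 fold change of the 8 measured genes between the miR-34 and the miR-9 experiment (horizontal axis; above 0, higher in the miR-34 experiment), with 95% intervals as bars, for the GFP Ctrl mice and for the sponge mice, 3 mice per group. The interval of Sox4 lies above 0 in both sets, 0.12 to 0.49 and 0.18 to 0.55.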

How the data were processed

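RNA of 12 mice was analysed from the deposited raw counts, the numbers of reads that the authors counted per RefSeq entry after mapping 50 bp single end reads. The deposited tables also give entry lengths, in bases. The methods name mm9, whereas the submitters' processing notes name mm10 and STAR, and the counting tool is not given in the sources used here. NuGEN Ovation libraries with poly-A enrichment are described. Mice were grouped by their labels, and the GFP Ctrl mice whose label names no experiment were taken as those of the miR-9 experiment, since the other set is labelled for miR-34. The labels do not describe litters or batches, so the p-values measure the spread between these mice.

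Of 32850 entries, 98.7% were matched to a symbol and counts were summed per symbol. Genes with a mean above 10 scaled reads were tested with edgeR 4.0.16 (R 4.3.3, quasi-likelihood, TMM), and p-values were adjusted (Benjamini-Hochberg) over all genes tested. Unadjusted p-values come from the same model. DESeq2 1.42.0, other scalings and filters, the best counted entry and the omission of each mouse were alternatives. Correlations, lists and figures used matplotlib 3.10.9, pandas 2.3.3, scipy 1.17.1 and Python 3.11.15, and the code was tested on simulated data. The genes and the gene lists were chosen with earlier results of these data known. Named were the 10 genes, any listed gene with an adjusted p under 0.05, the 2 genes per list with the smallest p in each sponge comparison, the 5 genes most like Sox2 and Ttr. The comparison of sponge mice between experiments, the omission of the 2 mice with most choroid plexus RNA and the 28 pairs were added after the data had been seen.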

Additional observations from a re-analysis of the deposited data

How the results depend on the processing

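No paired analysis was possible because sponge and GFP Ctrl mice of an experiment share no replicate number. No alternative changed the absence of calls among the 8 genes in both sponge comparisons and in the difference between them. The number of all genes called changed more. After GFP-miR-9sp it was 0 with edgeR, 2 with DESeq2, 2 without the read limit, 188 under the study's criterion, 1 without the 2 mice with most choroid plexus RNA, and 0 to 1 without each mouse. After GFP-miR-34sp it was 8, and became 36 with DESeq2, 4 each with median-of-ratios factors, total counts and the best counted entry, 81 without the read limit, 1 with more than 10 reads in every mouse, 0 in 1 model of all mice, 249 under the study's criterion and 0 to 57 without each mouse, the highest without GFP Ctrl mouse 10. For the difference it was 5 with DESeq2, 4 without the read limit and 0 to 1 without each mouse. Between the GFP Ctrl groups 1 to 4 of the 8 genes passed without each mouse.

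Some differences changed sign, among them large ones of choroid plexus genes. With total counts, Neurod1 became -0.00 and Nes -0.01 between the GFP Ctrl groups, and Neurod1 became 0.13 after GFP-miR-9sp without the 2 choroid plexus mice. In the sponge mice of the experiments the differences were 0.27 for Sstr2, -1.78 for Ttr, -0.29 for Kl, -1.43 for Kcne2, -1.87 for Tmem72, -1.82 for Aqp1 and -0.44 for Sostdc1. Without each mouse, the GFP-miR-9sp differences were -0.05 to 0.05 for Sox4, -0.11 to 0.12 for Neurod1, -0.24 to 0.02 for Top2a and -4.09 to 0.75 for Ttr, and the GFP-miR-34sp differences were -0.11 to 0.07 for Sox11, -0.01 to 0.18 for Sox4, -0.38 to 0.42 for Igfbpl1, -0.03 to 0.07 for Sox2 and -0.17 to 0.08 for Nes. The differences between sponges were -0.01 to 0.18 for Sox4, -0.04 to 0.18 for Neurod1 and -0.13 to 0.13 for Nes, and those between GFP Ctrl groups -0.05 to 0.20 for Nes and -0.03 to 0.20 for Neurod1. Of the pairs, 1 passed with total counts, and 3 of the 10 genes held a miR-34 match with 7mer-m8 included, beside 1 with an 8mer. The order of levels of the 8 measured genes was the same per kilobase of the longest entry. The cause of these changes was not tested. The correlations with Dcx were not run, because it had 0 to 3 reads per mouse. Igfbpl1 had 14 to 55 and Top2a 21 to 49 reads per mouse, which limits their precision.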

Other observations

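Some genes of the neurogenic lineage beyond the 10 differed between the GFP Ctrl mice of the experiments. In this comparison 25.2% of all genes differed, 15.1% higher and 10.1% lower in the miR-34 experiment. Of the 23 genes named below from the 5 lists, 13 passed under every alternative run on the GFP Ctrl mice and 10 did not under at least 1. Between the sponge mice 17 of the 23 passed with the same sign. Neither share was computed for all genes, so these counts are not read as particular to the neurogenic lineage. Of 20 tested genes of cell division, 3 were higher in the miR-34 experiment, the replication clamp Pcna (log2 difference 0.81, adjusted p 1.38e-08), the helicase subunit Mcm7 (0.36, adjusted p 0.00617) and the chromatin protein Hmgb2 (1.25, adjusted p 4.51e-05), and none was lower. Of 23 tested genes of immature neurons, 5 were higher: Tubb2b, a tubulin (0.75, adjusted p 2.01e-10), Igf1r (0.44), Stmn1, which encodes stathmin (0.33), Bhlhe22 (0.27) and Marcksl1 (0.17). In the same list Fezf2 (-0.34), the collapsin response mediator Dpysl5 (-0.26) and the guidance cue Sema3c (-0.22) were lower. Tubb2b shares long stretches with other tubulin genes, and how shared reads were counted is not given in the sources used here.

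Among 18 stem cell genes, Thrsp (0.52), Id3 (0.27) and Sox9 (0.25), a glial transcription factor, were higher and Foxo3 (-0.31) was lower. Among 14 progenitor genes, Gadd45g (0.56), Mycn (0.41) and Ccnd2 (0.35) were higher and Sstr2 (-0.43) was lower, whereas it differed by 0.27 between the sponge mice. Among 22 niche genes, Frzb (0.40) and the Hedgehog pathway gene Smo (0.26) were higher, and Gli1 (-1.08), a Hedgehog effector, and the BMP receptor gene Bmpr1a (-0.18) were lower. The marker genes Dsp, S100b, Gja1, Aif1, Spag16 and Nrgn were higher as well, and Sox10, P2ry12 and Csf1r were lower. The choroid plexus genes Kl, Kcne2, Tmem72, Aqp1 and Sostdc1 were also higher between the GFP Ctrl mice, but their differences between the sponge mice were of the opposite sign, with -0.29, -1.43, -1.87, -1.82 and -0.44. Experiment and what differs with it, such as sequencing depth, cannot be told apart in any of these values.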
